A study of Rattus norvegicus with 20 samples.

Results

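Kupffer cells are the resident macrophages of the liver. They sit in the sinusoids, where they take up particles, bacteria, dying cells and worn-out red cells, and their survival depends on signalling through the colony-stimulating factor 1 receptor. Around birth they share the liver with blood-forming cells, whose debris macrophages also clear.

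The genes described here are 10 markers of Kupffer cells and other macrophages, chosen by name: C1qa, C1qb, C1qc, Cd163, Cd68, Marco, Clec4f, Csf1r, Ms4a6a and Gas6. Of these, 9 genes were measured, by 12 probe sets that the array annotation pairs with a single gene symbol, out of 14217 genes and 31042 probe sets in all. Marco had no single-symbol probe set in the annotation used here and has no value. Where a gene had several probe sets, the one with the highest mean stands for the gene and the others are given beside it. The markers and the other gene lists used below were chosen with earlier results of these data known. Their counts are therefore descriptive and give no independent support for a decrease.

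Liver messenger RNA was measured on Affymetrix rat arrays in 4 groups of 5 arrays, from Wistar Han rats (Crl:WI (Han)) labelled female, at postnatal day 4. The vehicle group received corn oil alone, and the other 3 groups received PBDE-47 (a flame retardant of the brominated diphenyl ether class) in corn oil at 0.1, 15 or 50 mg/kg per day. All groups were dosed by oral gavage to the dam in 5 mL/kg, from gestation day 6 to postnatal day 4. The labels do not give each liver as a dam's or a pup's, nor do they assign the 5 arrays of a group to different animals, so the p-values measure only the spread between these arrays, which may be technical.

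Values are on the log2 scale, so a difference of -1 is a halving of the signal. Each array's median lay between 5.607 and 5.653, and the mean of a list of hepatocyte genes (Alb, Afp, Apoa1 and others) between 14.19 and 14.31 on every array. Transcripts of skeletal muscle or exocrine pancreas stood over 2 log2 units above the lowest array on 10 arrays: 4 at 0.1 mg/kg, 2 at 15 mg/kg, 3 at 50 mg/kg and 1 with vehicle. Results at 50 mg/kg are therefore also given without these 10 arrays, which leaves 2 arrays at 50 mg/kg and 4 with vehicle. At 15 mg/kg 3 arrays are left, and at 0.1 mg/kg only 1. The 10 are called arrays of mixed tissue below from these transcripts alone, and whether other tissue was present was not tested. An adjusted p is from limma with Benjamini-Hochberg adjustment over all 31042 probe sets, two-sided, and a probe set is called when it is under 0.05.

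To show what lies in front of some of these genes, 5 promoters are printed below: C1qa and C1qb, which encode subunits of one protein, Cd68 and Cd163, and Ms4a6a, the gene with the largest decrease. Each is the 250 bases before the RefSeq transcription start in the GRCr8 assembly, 5′ to 3′ on the gene's strand. Capitals mark matches, on either strand, to GAGGAA (the core of sites for PU.1, the factor that directs macrophage development), GGAAGT (a core shared by ETS factors) and TGCTGA (a half-site of MAF factors). A GAGGAA match can overlap a GGAAGT match, as it does once in Ms4a6a.
C1qa (chr5:154419934-154420183, minus strand): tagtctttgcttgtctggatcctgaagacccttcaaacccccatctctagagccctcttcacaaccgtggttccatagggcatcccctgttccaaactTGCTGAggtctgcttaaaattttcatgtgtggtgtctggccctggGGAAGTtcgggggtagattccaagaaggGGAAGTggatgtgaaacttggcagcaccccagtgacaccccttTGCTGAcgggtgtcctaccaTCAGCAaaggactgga
C1qb (chr5:154407828-154408077, minus strand): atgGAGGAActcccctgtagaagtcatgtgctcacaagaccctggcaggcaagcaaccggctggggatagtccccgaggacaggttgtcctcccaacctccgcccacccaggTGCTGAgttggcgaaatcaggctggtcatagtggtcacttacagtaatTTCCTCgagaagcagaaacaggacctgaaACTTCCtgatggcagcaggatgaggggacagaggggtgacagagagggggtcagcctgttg
Cd68 (chr10:54882442-54882691, minus strand): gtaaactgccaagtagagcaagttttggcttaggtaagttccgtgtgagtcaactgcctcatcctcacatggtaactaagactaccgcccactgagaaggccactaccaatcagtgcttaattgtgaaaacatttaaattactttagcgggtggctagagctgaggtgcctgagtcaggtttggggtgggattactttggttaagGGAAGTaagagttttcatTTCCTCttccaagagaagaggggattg
Cd163 (chr4:158770524-158770773, plus strand): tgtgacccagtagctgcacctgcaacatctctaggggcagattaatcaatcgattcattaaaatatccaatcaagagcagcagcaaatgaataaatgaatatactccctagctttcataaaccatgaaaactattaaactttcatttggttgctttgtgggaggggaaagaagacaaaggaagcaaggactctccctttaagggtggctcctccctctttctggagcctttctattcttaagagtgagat
Ms4a6a (chr1:217839574-217839823, minus strand): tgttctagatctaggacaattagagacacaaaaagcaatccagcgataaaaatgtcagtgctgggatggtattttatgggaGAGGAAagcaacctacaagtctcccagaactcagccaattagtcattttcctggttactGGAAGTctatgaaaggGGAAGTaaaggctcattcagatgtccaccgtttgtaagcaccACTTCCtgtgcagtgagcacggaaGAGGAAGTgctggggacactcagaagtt

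GAGGAA was found in 5 of the 9 promoters of these genes that the RefSeq table holds (C1qb, Cd68, Csf1r, Ms4a6a and Marco), and in 23.3% of all 33469 promoters of the same length. The 9 include Marco but not C1qc, whose promoter was not available and was not searched. GGAAGT was found in 5 of the 9 (C1qa, C1qb, Cd68, Clec4f and Ms4a6a), against 19.2% of all promoters. TGCTGA was found in 2 of the 9 (C1qa, 3 times, and C1qb, once), against 15.1% of all. The closest match to a start was TGCTGA on the opposite strand of C1qa, 16 to 11 bases before it, followed by GGAAGT in Ms4a6a at 26 to 21 bases and GAGGAA in Cd68 at 27 to 22 bases. Cd163 and Gas6 held none of the 3 motifs in this window. A match is a string of letters and was not tested as a binding site.

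Of the 12 macrophage probe sets, 6 fell at 50 mg/kg relative to vehicle, 1 each for C1qb, C1qc, Cd163, Cd68, Ms4a6a and Gas6, and 0 rose. Over all probe sets, 0.348% were called lower in this comparison and 0.934% either way. All 9 genes, and 11 of the 12 probe sets, had a negative log2 change (as 47% of all probe sets did), between -0.78 for Ms4a6a and -0.34 for Clec4f, with a median of -0.48, against a median of 0.01 over all probe sets. On 5 of the 12 probe sets (C1qa, C1qb, C1qc, Cd68 and Gas6) every array at 50 mg/kg lay below every vehicle array, as on 1.18% of all probe sets. In bulk tissue, fewer cells of a type and less RNA per cell cannot be told apart.

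The number called at 50 mg/kg was 1 when vehicle replicate 4 or 50 mg/kg replicate 4 was left out, 2 without vehicle replicate 3 and 3 without 50 mg/kg replicate 3, and the 1 that passed in the first 2 of these fits was C1qb. Without the 10 arrays of mixed tissue, 0 of the 12 were called in limma and 3 of all probe sets were, while the log2 changes of the 9 genes lay between -1.0 (Ms4a6a) and -0.16 (Clec4f).

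**Figure D1:**
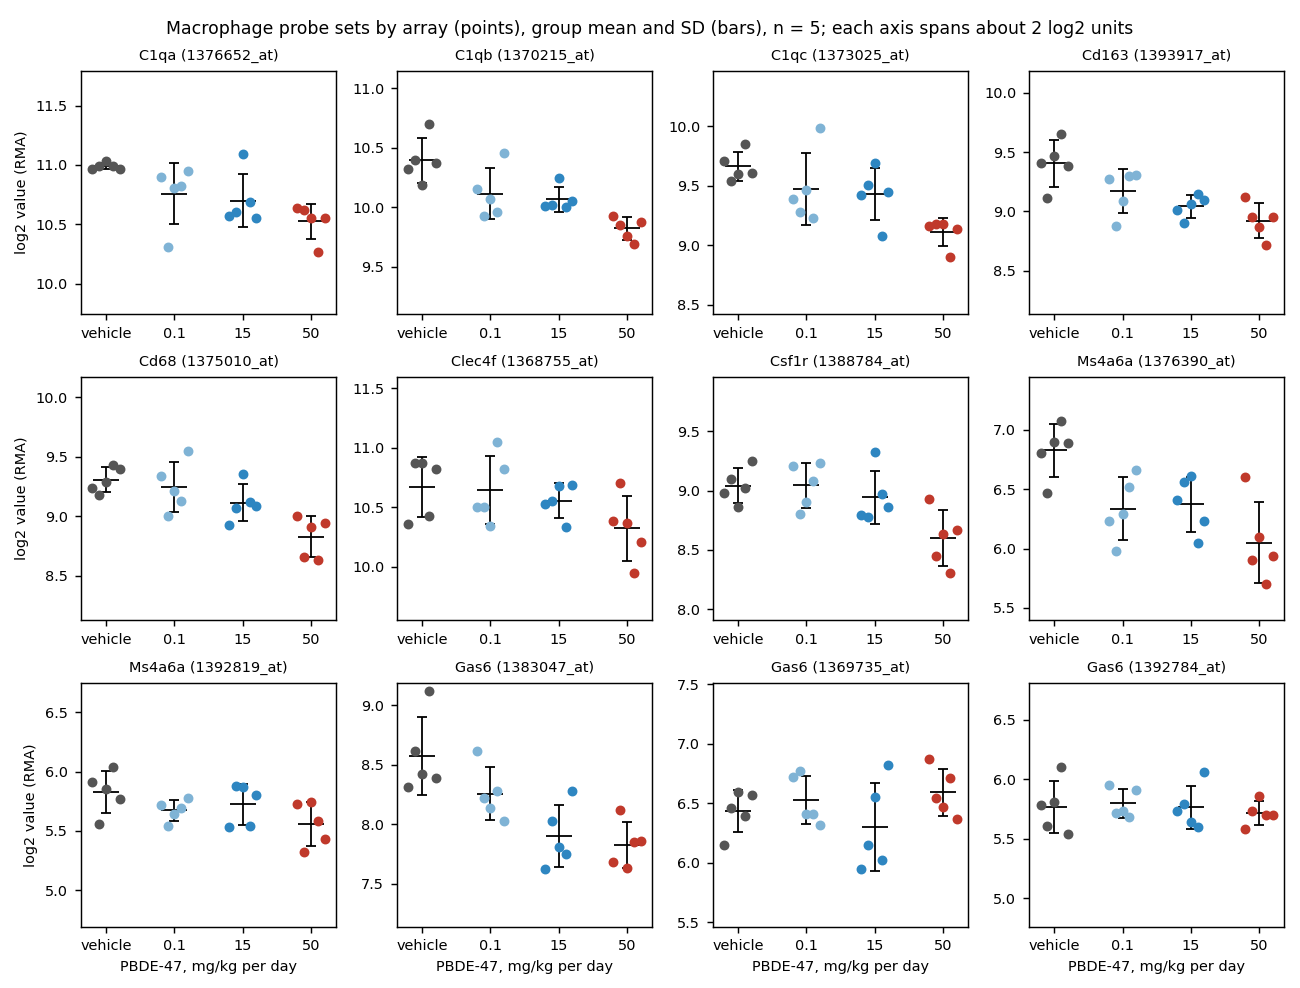
The log2 value of each of the 12 macrophage probe sets on every array (points) in the vehicle, 0.1, 15 and 50 mg/kg groups, with the group mean and SD (bars, n = 5). The 50 mg/kg points of C1qa, C1qb, C1qc, Cd68 and the brightest Gas6 probe set all lie below the vehicle points, while the other 2 Gas6 probe sets show no such gap.

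C1qa, C1qb and C1qc encode the 3 chains of C1q, the recognition protein of the classical complement pathway, which in liver is made mainly by macrophages. C1qb and C1qc fell at 50 mg/kg, and C1qa stood just outside the threshold. In the RefSeq gene table the 3 genes are neighbours on chromosome 5.

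C1qa (1376652_at) was at 10.97, 10.99, 11.03, 10.99 and 10.97 on the vehicle arrays and at 10.90, 10.31, 10.81, 10.82 and 10.95 at 0.1 mg/kg. It was at 10.57, 10.60, 11.09, 10.69 and 10.55 at 15 mg/kg and at 10.64, 10.62, 10.55, 10.27 and 10.55 at 50 mg/kg. The vehicle arrays were almost level with each other (SD 0.02, n = 5), and all arrays at 0.1 and 50 mg/kg lay below them, but replicate 3 at 15 mg/kg was the highest of all 20. The log2 change at 50 mg/kg was -0.46 (SE 0.11, adjusted p = 0.0574). It passed when 0.1 mg/kg replicate 2 or 15 mg/kg replicate 3 was left out.

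C1qb (1370215_at) had the smallest p of the set. Its values were 10.32, 10.40, 10.19, 10.70 and 10.37 with vehicle and 10.15, 9.93, 10.07, 9.96 and 10.46 at 0.1 mg/kg. They were 10.01, 10.02, 10.25, 10.00 and 10.05 at 15 mg/kg and 9.93, 9.85, 9.76, 9.69 and 9.88 at 50 mg/kg. Every 50 mg/kg array lay below every vehicle array and also below every 15 mg/kg array, whereas the 0.1 and 15 mg/kg arrays overlapped with vehicle. The mean was 9.82 ± 0.10 at 50 mg/kg and 10.40 ± 0.19 with vehicle (SD, n = 5 each), a log2 change of -0.57 (SE 0.10, adjusted p = 0.00577), so that the signal fell by 32.8%. C1qb stayed called in each of the 20 fits that left out 1 array, with adjusted p between 0.00177 and 0.0267.

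C1qc (1373025_at) was at 9.71, 9.54, 9.60, 9.85 and 9.61 with vehicle and at 9.39, 9.28, 9.46, 9.23 and 9.99 at 0.1 mg/kg. It was at 9.42, 9.51, 9.69, 9.08 and 9.45 at 15 mg/kg and at 9.16, 9.18, 9.18, 8.90 and 9.14 at 50 mg/kg. Replicate 4 at 50 mg/kg stood apart at 8.90, and the others of that group lay between 9.14 and 9.18. All 50 mg/kg arrays lay below all vehicle and all 0.1 mg/kg arrays, but 1 array at 15 mg/kg (replicate 4) fell among them. The log2 change at 50 mg/kg was -0.55 (SE 0.12, adjusted p = 0.0377). The call ended in each of the 10 fits that left out a vehicle or a 50 mg/kg array, although the log2 change stayed between -0.58 and -0.50 in all 20 fits.

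Among the surface receptors, Cd163, which takes up haemoglobin bound to haptoglobin and is typical of tissue macrophages, fell at 50 mg/kg. Clec4f, a C-type lectin of rodent Kupffer cells, and Csf1r, the receptor for the growth factors CSF1 and IL-34 on which macrophages depend, did not pass.

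Cd163 (1393917_at) was at 9.41, 9.11, 9.47, 9.65 and 9.38 with vehicle and at 9.27, 8.88, 9.09, 9.30 and 9.31 at 0.1 mg/kg. It was at 9.01, 8.90, 9.06, 9.15 and 9.10 at 15 mg/kg and at 9.12, 8.95, 8.87, 8.72 and 8.95 at 50 mg/kg. The lowest vehicle array, replicate 2 at 9.11, lay just under the highest 50 mg/kg array, so those groups overlapped by 1 array on each side. At 50 mg/kg the log2 change was -0.48 (SE 0.10, adjusted p = 0.0212), and the signal fell by 28.4%. The call ended without vehicle replicate 3 or 4, or without 50 mg/kg replicate 3 or 4, with an adjusted p of at most 0.0788 over the 20 fits.

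Clec4f (1368755_at) was at 10.36, 10.87, 10.87, 10.43 and 10.82 with vehicle and at 10.50, 10.50, 10.34, 11.05 and 10.82 at 0.1 mg/kg. It was at 10.53, 10.55, 10.68, 10.33 and 10.69 at 15 mg/kg and at 10.38, 10.70, 10.37, 9.95 and 10.21 at 50 mg/kg. The vehicle arrays fell into a lower pair and an upper group, and 3 of the 50 mg/kg arrays lay above the lowest vehicle array. At 50 mg/kg the log2 change was -0.34 (SE 0.15, adjusted p = 0.310), and its 95% interval ran from -0.65 to -0.04. The median change of the 9 genes lies inside that interval.

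Csf1r (1388784_at) was at 8.98, 9.10, 8.86, 9.02 and 9.25 with vehicle and at 9.21, 8.80, 8.90, 9.08 and 9.23 at 0.1 mg/kg. It was at 8.79, 8.78, 9.32, 8.97 and 8.86 at 15 mg/kg and at 8.93, 8.45, 8.63, 8.31 and 8.67 at 50 mg/kg. At 50 mg/kg 4 arrays lay below every vehicle array, and replicate 1 lay among them. The log2 change was -0.45 (SE 0.12, adjusted p = 0.0947), and it was -0.53 with an adjusted p of 0.0460 when 50 mg/kg replicate 1 was left out.

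Cd68, a glycoprotein of the lysosomes and endosomes of phagocytes, fell at 50 mg/kg. The Cd68 probe set (1375010_at) was at 9.24, 9.18, 9.29, 9.43 and 9.40 with vehicle and at 9.34, 9.0, 9.21, 9.13 and 9.55 at 0.1 mg/kg. It was at 8.93, 9.07, 9.36, 9.12 and 9.09 at 15 mg/kg and at 9.0, 8.66, 8.91, 8.63 and 8.94 at 50 mg/kg. All 50 mg/kg arrays lay below all vehicle arrays, with replicates 2 and 4 the lowest, and the 0.1 mg/kg arrays spread over the vehicle range on both sides. The log2 change at 50 mg/kg was -0.48 (SE 0.10, adjusted p = 0.0272), so that the signal fell by 28.2%. The call ended without vehicle replicate 3, 4 or 5, or without 50 mg/kg replicate 2 or 4, and also with a covariate for RNA integrity, the signal of beta-actin's 3′ control minus that of its 5′ control (-0.44, adjusted p = 0.0586).

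Ms4a6a, a membrane protein of the MS4A family found on macrophages, had the largest decrease of the 9 genes. Its brighter probe set (1376390_at) was at 6.80, 6.47, 6.90, 7.07 and 6.89 with vehicle and at 6.23, 5.98, 6.29, 6.52 and 6.66 at 0.1 mg/kg. It was at 6.41, 6.56, 6.61, 6.05 and 6.23 at 15 mg/kg and at 6.60, 5.90, 6.10, 5.70 and 5.94 at 50 mg/kg. At 50 mg/kg 4 arrays lay between 5.70 and 6.10, below all vehicle arrays, and replicate 1 stood alone at 6.60. The log2 change was -0.78 (SE 0.16, adjusted p = 0.0205), so that the signal fell by 41.8%. The call ended without vehicle replicate 3 or 4, or without 50 mg/kg replicate 4 or 5.

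The dimmer Ms4a6a probe set (1392819_at) ranged from 5.32 to 5.74 at 50 mg/kg and from 5.56 to 6.04 with vehicle, and these ranges overlapped. Its log2 change was -0.27 (SE 0.10, adjusted p = 0.252), of the same sign but with a 95% interval of -0.48 to -0.06, apart from the estimate of the brighter one.

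Gas6 encodes a secreted ligand of the receptor kinases Axl, Mertk and Tyro3, which lead phagocytes to engulf dying cells, and it is not restricted to macrophages. Its brightest probe set (1383047_at) was at 8.31, 8.62, 8.42, 9.12 and 8.39 with vehicle and at 8.62, 8.22, 8.14, 8.28 and 8.03 at 0.1 mg/kg. It was at 7.62, 8.03, 7.81, 7.75 and 8.28 at 15 mg/kg and at 7.68, 8.12, 7.63, 7.85 and 7.86 at 50 mg/kg. All arrays at 15 and at 50 mg/kg lay below the vehicle arrays, and those 2 dose groups overlapped almost entirely. The log2 change at 50 mg/kg was -0.74 (SE 0.15, adjusted p = 0.0210), so that the signal fell by 40.2%, and at 15 mg/kg it was -0.67 (SE 0.15, adjusted p = 0.100). The call at 50 mg/kg ended without vehicle replicate 4 or without 50 mg/kg replicate 3 or 4.

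The other 2 Gas6 probe sets did not follow the first. One (1369735_at) ranged from 6.37 to 6.87 at 50 mg/kg and from 6.15 to 6.59 with vehicle, with a log2 change of 0.16 (95% interval -0.15 to 0.47, adjusted p = 0.715). The other (1392784_at) ranged from 5.58 to 5.86 at 50 mg/kg and from 5.54 to 6.10 with vehicle, with a log2 change of -0.05 (95% interval -0.26 to 0.16, adjusted p = 0.887). Both intervals lie above the estimate of the brightest one, so the decrease of Gas6 rests on 1 of its 3 probe sets.

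Within the lower doses none of the 12 probe sets was called in limma. At 15 mg/kg against vehicle 0 of 12 passed, while 0.116% of all probe sets did (36 probe sets). An unadjusted p under 0.05 was reached by 5 of the 12 (C1qa, C1qb, Cd163, the brighter Ms4a6a and the brightest Gas6), as by 12.1% of all. The 9 genes had a median log2 change of -0.29, and all 9 were negative (45.9% of all probe sets were), from -0.67 for Gas6 to -0.10 for Csf1r. Only Gas6 had every 15 mg/kg array below every vehicle array, as 0.754% of all probe sets did.

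At 0.1 mg/kg against vehicle 0 of the 12, and 0 of all probe sets, passed in limma. An unadjusted p under 0.05 was reached by 3 of the 12 (C1qb, Cd163 and the brighter Ms4a6a) and by 6.87% of all (2134 probe sets). The median log2 change of the 9 genes was -0.23, with 8 of 9 negative (46.8% of all probe sets were). Ms4a6a was at -0.49 (95% interval -0.82 to -0.16), and Csf1r and Clec4f were at 0.00 and -0.02. C1qa was the 1 probe set with every 0.1 mg/kg array below every vehicle array, as on 0.474% of all, but its values at 15 mg/kg overlapped with vehicle. The comparisons of the 3 doses with vehicle share the 5 vehicle arrays.

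**Figure D2:**
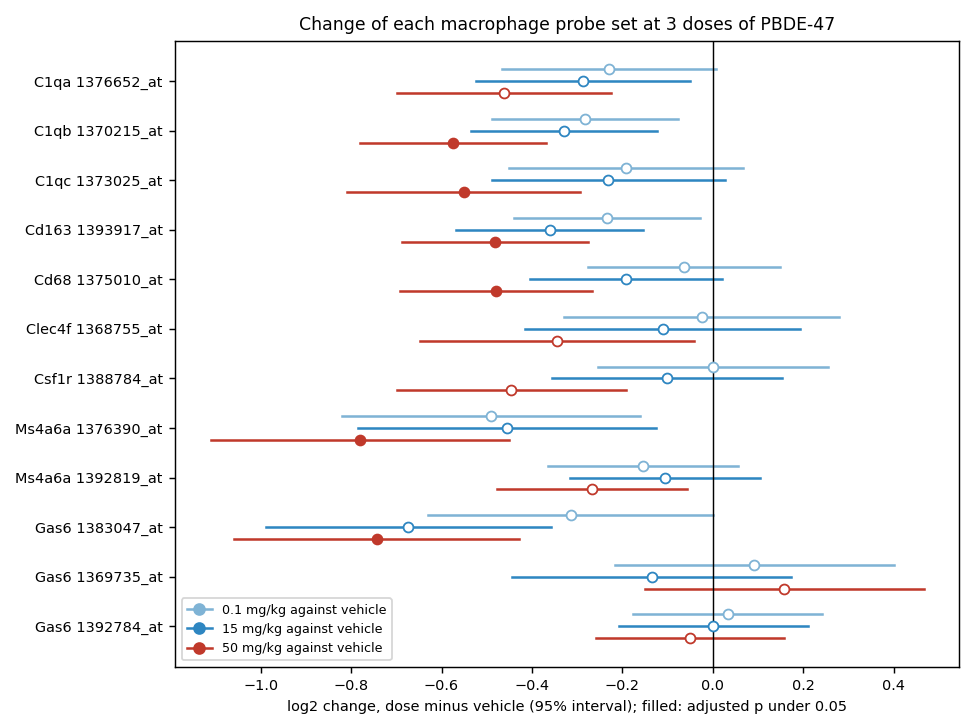
The log2 change of each macrophage probe set against vehicle at 0.1, 15 and 50 mg/kg, with its 95% interval from limma; filled points have an adjusted p under 0.05. The 6 filled points are all at 50 mg/kg, and the brightest Gas6 probe set has nearly the same change at 15 mg/kg (-0.67) as at 50 mg/kg (-0.74).

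Over the dose order from vehicle to 50 mg/kg, the group means were lower at each step for 7 of the 12 probe sets (C1qa, C1qb, C1qc, Cd163, Cd68, Clec4f and the brightest Gas6), as for 7.00% of all. A linear slope over the 4 groups, per step and not per mg/kg, was called lower for 7 of the 12, against 0.486% of all probe sets (1.45% were called in either direction). These were C1qa, C1qb, C1qc, Cd163, Cd68, Ms4a6a and Gas6, with slopes between -0.14 for C1qa and -0.26 for Gas6 per step. The number was 3 without 50 mg/kg replicate 4, and 4 without vehicle replicate 3 or 4 or 50 mg/kg replicate 5. Without the 10 arrays of mixed tissue, 1 array is left at 0.1 mg/kg, too few for a count of slopes.

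No pair of neighbouring dose groups differed by the test for any of the 12 probe sets. For 50 against 15 mg/kg 0 of the 12 and 0 of all probe sets passed in limma, with an unadjusted p under 0.05 for 4 of the 12 (C1qb, C1qc, Cd68 and Csf1r) and for 5.63% of all. Csf1r had the largest difference there, -0.34 (SE 0.12, adjusted p = 0.858), and Gas6 the smallest, -0.07 (SE 0.15). For 15 against 0.1 mg/kg 0 of the 12 passed, as did 0.0902% of all, and only Gas6 had an unadjusted p under 0.05 (-0.36, SE 0.15, adjusted p = 0.834), as 5.63% of all probe sets did. The 50 mg/kg group was also set against the 0.1 mg/kg group, which is free of the vehicle arrays. There 0 of the 12 passed, against 0.644% of all, and 7 of the 12 had an unadjusted p under 0.05, against 8.89% of all. Cd68 had the smallest p in that comparison, with a log2 difference of -0.41 (SE 0.10, adjusted p = 0.0754). All 9 genes were negative in it, as were 52.4% of all probe sets, with a median of -0.32. Only C1qc had every 50 mg/kg array below every 0.1 mg/kg array (0.896% of all probe sets did), and only C1qb had every 50 mg/kg array below every 15 mg/kg array (0.535% of all).

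Within each group of arrays that share the leading digit of the description number, whose meaning the labels do not give, 50 mg/kg could be set against vehicle 4 times. Each time only 1 or 2 arrays stood on a side. The differences of C1qa, C1qb, C1qc, Cd163, Cd68, Csf1r, Ms4a6a and the brightest Gas6 were negative in all 4, from -1.01 to -0.39 for C1qb. Those of Clec4f were negative in 3 of 4, from -0.61 to 0.02. Those of the dimmer Gas6 probe sets (1369735_at and 1392784_at) were each negative in 2 of 4. The arrays are the same as in the main comparison, and the share of all probe sets negative in all 4 was not counted.

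Whether one gene changed more than another was tested on the difference between their log2 values on each array. Over the 36 pairs of the 9 genes, an exact two-sided permutation test of 50 mg/kg against vehicle (5 against 5 arrays, smallest possible p 0.00794) called 0 pairs. A single pair at that smallest p would have an adjusted p of 0.286, and at least 6 pairs would have to reach it before any could pass, so the count of 0 says little about whether the genes changed alike. The smallest p was 0.0397, for Cd163 against Ms4a6a, whose log2 changes differed by 0.30 (adjusted over the 36 pairs, 0.571; 2 pairs had an unadjusted p under 0.05). The C1q chains differed from each other in change by at most 0.11, between C1qa and C1qb (exact p = 0.294).

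From array to array within the dose groups, most of these genes varied together. With the group means removed, Pearson's r over the 20 arrays was positive for 32 of the 36 pairs, with a median of 0.48 and a range of -0.13 to 0.81. After permutation within groups and adjustment over the 36 pairs, 13 pairs passed by Pearson's r and 11 by Spearman's rho. The highest was Cd68 with Csf1r (r = 0.81, rho = 0.77, permutation p = 2e-04 and 0.00075, adjusted 0.005 and 0.027), which was 0.75 without the 2 arrays farthest from the median of Cd68. C1qb with C1qc followed (r = 0.79, rho = 0.64, permutation p = 0.00028 and 0.0045, adjusted 0.005 and 0.03), at 0.64 without the 2 farthest arrays. Cd68 took part in 6 of the 13 pairs. All pairs share the same 20 arrays and their normalization.

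Clec4f and Gas6 took part in 0 of the 13. The r of Clec4f with the other 8 genes lay between 0.02 and 0.36, and that of Gas6 between -0.13 and 0.25. With vehicle, replicate 1 had the lowest Clec4f value of its group, while replicate 4 had the highest Gas6 value together with the highest C1qb, C1qc, Cd163, Cd68 and Ms4a6a.

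**Figure D3:**
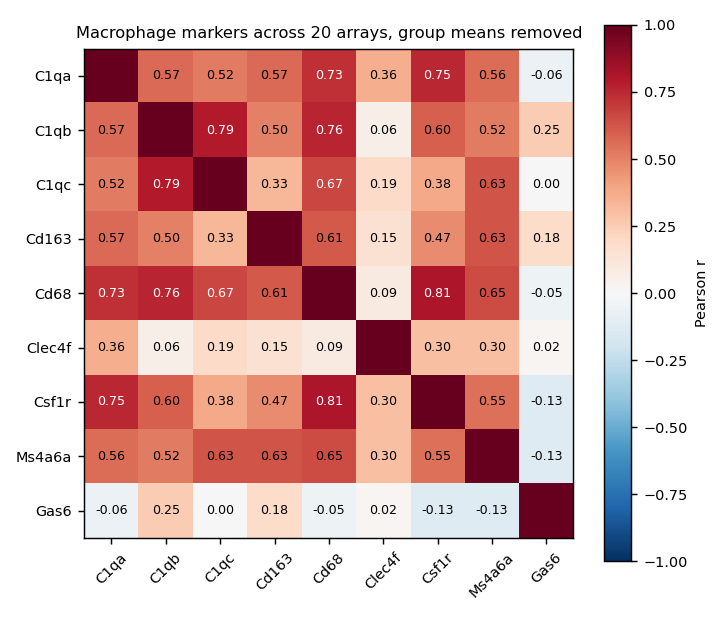
Pearson's r between the log2 values of each pair of the 9 genes over 20 arrays, after the mean of each dose group was removed (brightest probe set per gene). The darkest cells are Cd68 with Csf1r (0.81) and C1qb with C1qc (0.79), C1qc with Csf1r is paler (0.38), and the Clec4f and Gas6 lines are at 0.36 or below.

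The mean of the 9 genes was taken on each array to find genes with a like pattern. It lay between 9.34 and 9.58 with vehicle, between 8.99 and 9.44 at 0.1 mg/kg, between 9.02 and 9.32 at 15 mg/kg and between 8.67 and 9.05 at 50 mg/kg, so the 50 mg/kg arrays and the vehicle arrays did not overlap. Among 9032 other genes with a mean log2 value of at least 6, the 10 that followed this mean most closely over the 20 arrays, with group means removed, were Ctsz (r = 0.89), Cybb (0.88), Npc2 (0.85), C5ar1 (0.85), Cyba (0.84), Rarres1 (0.83), Tyrobp (0.81), Anxa3 (0.80), Il10ra (0.80) and Fcer1g (0.80). Ctsz encodes a lysosomal cathepsin and Npc2 a lysosomal cholesterol carrier. Cybb and Cyba encode the membrane subunits of the phagocyte NADPH oxidase, Tyrobp and Fcer1g signalling adaptors of myeloid receptors, and C5ar1 the receptor for the complement fragment C5a. Of these 10, Npc2 (-0.29, adjusted p = 0.0461), Cyba (-0.54, adjusted p = 0.0476) and Rarres1 (-0.50, adjusted p = 0.0384) also fell at 50 mg/kg in limma. Over all probe sets, 0.348% were called lower. Ctsz, Cybb, C5ar1, Tyrobp, Anxa3, Il10ra and Fcer1g were also negative but did not pass, with adjusted p from 0.0688 (Cybb) to 0.292 (C5ar1).

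A further list of 34 macrophage genes, also chosen with earlier results known, was set beside the markers, and 28 of them were measured. At 50 mg/kg 3 of the 28 fell, 0 rose and 25 did not pass (13 of the 28 had an unadjusted p under 0.05), and 23 of the 28 were negative, with a median log2 change of -0.29. Over all probe sets, 0.348% were called lower, 13% had an unadjusted p under 0.05 and 47% were negative. The 3 were Aif1, a calcium-binding protein of macrophages (-0.54, SE 0.13, adjusted p = 0.0476), Cyba (-0.54, SE 0.13, adjusted p = 0.0476) and Slc40a1, the iron exporter ferroportin (-0.36, SE 0.09, adjusted p = 0.0481). Cybb was at -0.54 (SE 0.14, adjusted p = 0.0688). Some bright genes of the list stood near 0: Mrc1 at -0.05 (adjusted p = 0.883), Fcgr2b at 0.04 (adjusted p = 0.960) and Nr1h3 at 0.02 (adjusted p = 0.97). Adgre1, at -0.26, did not pass either (adjusted p = 0.509). For Mrc1, Fcgr2b, Nr1h3 and Adgre1, r with the mean of the 9 markers (group means removed) was 0.21, 0.12, 0.29 and 0.44. Which liver cells gave these signals was not tested. A dimmer probe set of Slc40a1 also fell (-0.45, adjusted p = 0.0224), and the other did not pass (-0.21). The second probe sets of Aif1 (0.06) and Cyba (-0.02) did not pass. Both are dim, with mean log2 values of 5.46 and 3.77, under the lowest array median of 5.607.

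Cyba averaged 8.64 ± 0.26 at 50 mg/kg and 9.18 ± 0.16 with vehicle (SD, n = 5 each), and its groups did not overlap. Of the 28 genes, 7 had every 50 mg/kg array below every vehicle array, as had 1.18% of all probe sets. Aif1 averaged 8.94 ± 0.22 at 50 mg/kg and 9.48 ± 0.17 with vehicle, and its groups overlapped.

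Among the ligands, receptors and partners of the markers, 12 listed and measured, 0 passed at 50 mg/kg in limma, and 4 had an unadjusted p under 0.05 (13% of all probe sets did). Of the 12, 8 were negative, with a median log2 change of -0.08. Pros1, protein S, which like Gas6 binds the Tyro3 and Mertk receptors, was at 0.29 (SE 0.08, adjusted p = 0.0928), and its slope over the dose order was called higher (adjusted p = 0.0258). C1s, the protease that acts with C1q, was at -0.43 (SE 0.13, adjusted p = 0.148), Axl at -0.27 (SE 0.10, adjusted p = 0.226) and Calr, calreticulin, which binds C1q, at -0.28 (SE 0.11, adjusted p = 0.255). Of 11 complement genes made by hepatocytes, 0 passed, 4 had an unadjusted p under 0.05, as 13% of all probe sets did, and their median was -0.11.

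Lists of other cell types were set beside the macrophage genes at 50 mg/kg, and 0 genes of any of them were called in limma. For neutrophil genes the median was -0.45, with 8 of 8 measured genes negative and 3 with an unadjusted p under 0.05, against 13% of all probe sets. Among them S100a8 was at -0.55 (SE 0.23, adjusted p = 0.296) and Mmp8 at -0.50 (SE 0.19, adjusted p = 0.267). Erythroid genes had a median of -0.40 with 9 of 9 negative and 0 with an unadjusted p under 0.05, megakaryocyte genes -0.31 with 5 of 5, and B cell genes -0.21 with 3 of 3.

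The medians were -0.05 for T and NK cells (9 genes), -0.01 for liver endothelial cells (10 genes), 0.00 for hepatocytes (7 genes) and 0.13 for stellate cells and fibroblasts (10 genes). Single genes of these lists stood away from their medians. The T cell gene Cd3g was at -0.41 (SE 0.11, adjusted p = 0.0962), with every 50 mg/kg array below every vehicle array, as on 1.18% of all probe sets. The matrix gene Lum was at 1.28 (SE 0.41, adjusted p = 0.167). The hepatocyte genes had mean log2 values of 13.95 to 14.78, near the highest deposited value of 14.82, and microarrays are known to compress changes at the top of their range, so their median of 0.00 is weak evidence of no change. The neutrophil list mean ran from 9.03 to 10.18 at 50 mg/kg and from 9.79 to 10.87 with vehicle, and the erythroid list mean from 8.36 to 10.14 at 50 mg/kg and from 9.25 to 10.08 with vehicle, and both overlapped between the groups. The mean of the other macrophage genes ran from 8.26 to 8.62 at 50 mg/kg and from 8.59 to 8.81 with vehicle, which also overlapped. The T and NK list mean, like the mean of the 9 markers, did not overlap, at 4.50 to 4.64 at 50 mg/kg and 4.69 to 4.82 with vehicle. Those T and NK means are dim, under the lowest array median of 5.607, while the means of the 9 markers lie above it. The part of all these cell types in the result was not tested.

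**Figure D4:**
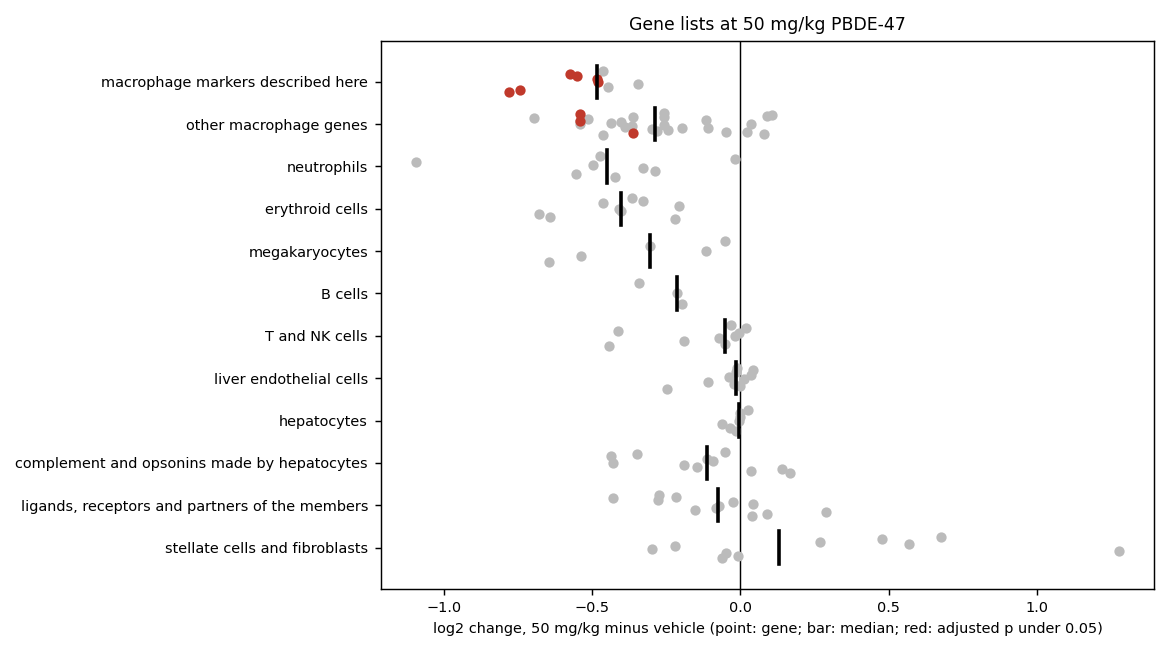
The log2 change at 50 mg/kg against vehicle for each gene (point, brightest probe set) of the 9 macrophage markers and of 11 other lists; bars are list medians and red points have an adjusted p under 0.05. The markers (median -0.48), neutrophil genes (-0.45) and erythroid genes (-0.40) lie left of 0, and only the macrophage lists hold red points.

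The skeletal muscle list mean ran from 4.32 to 7.55 at 50 mg/kg and from 4.04 to 9.19 with vehicle, where 1 array was over 5. The pancreas list mean ran from 4.64 to 4.84 at 50 mg/kg and from 4.66 to 4.78 with vehicle. With the muscle, pancreas and erythroid list means as covariates, 8 of the 12 probe sets were called at 50 mg/kg, and 227 of all 31042, where 290 of all were called without covariates. The 8 were the 6 above and also C1qa (-0.48, adjusted p = 0.0447) and Csf1r (-0.51, adjusted p = 0.0429). Without the 10 arrays of mixed tissue, the log2 changes were -0.53 for C1qb (adjusted p = 0.384), -1.0 for Ms4a6a (adjusted p = 0.170) and -0.57 for Gas6 (adjusted p = 0.628).

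**Figure D5:**
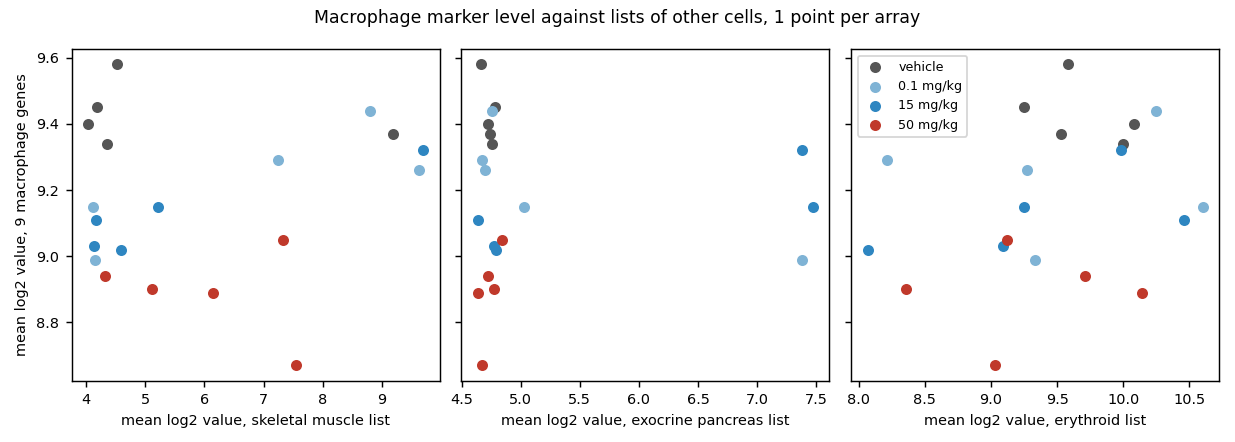
The mean log2 value of the 9 macrophage genes on each array (vertical axis) against the mean of the skeletal muscle, exocrine pancreas and erythroid lists (horizontal axes), coloured by dose group. At 50 mg/kg, 4 of the 5 arrays have muscle means between 5.11 and 7.55, where there is no vehicle array, and 1 has 4.32, while 4 vehicle arrays have 4.04 to 4.52 and 1 has 9.19. The highest pancreas values are on 1 array at 0.1 mg/kg and 2 arrays at 15 mg/kg.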

How the data were processed

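The authors deposited 1 table of log2 values for 31099 probe sets on 20 arrays, which the submitters' processing notes tie to RMA, with no version and no word on which arrays were processed jointly. RMA compresses changes of very bright and very dim probe sets. After 57 control probe sets were removed, 31042 were tested without a filter. Gene names are from GEO's platform annotation (20826 probe sets with 1 symbol, 436 with several, 9780 with no name here), and all 12 macrophage probe sets matched the RefSeq gene table of GRCr8 by gene ID.

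One model with a mean per group was fitted by lmFit and eBayes of limma 3.58.1 (R 4.3.3). Contrasts were each dose against vehicle, 50 against 15, 50 against 0.1, 15 against 0.1 (added after seeing the data) and a slope over the dose order. R/maanova, the tool of the series' own analysis, was not run. Gene pairs were compared by exact permutation and correlations by 100000 permutations within groups, with scipy 1.17.1 in Python 3.11.15. The limma code was tested on simulated data.

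The markers and all gene lists were chosen with earlier results of these data known. Of each other list up to 4 genes with the smallest p at 50 mg/kg were named, with the 10 genes most like the marker mean. Further probe sets of named genes, and Mrc1, Fcgr2b, Nr1h3 and Adgre1, were added after their values were seen. Replicate numbers were not used to pair the arrays in the main fit. Same-numbered arrays of different groups correlated between -0.36 and 0.29 in their deviations, over 0.1 in 10 of 30 pairs. Arrays with other numbers correlated between -0.42 and 0.52, over 0.1 in 39 of 120 pairs. These values cannot exclude a pairing. Promoters were read from RefSeq's table. Alternatives are described in the closing section. The number of arrays limits the precision.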

Additional observations from a re-analysis of the deposited data

Results flagged for a closer look

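In 5 of the 48 sets of 5 arrays (12 probe sets in 4 groups), 1 array lay far from the other 4 by Dixon's test, where chance flags about 1 in 20. C1qa accounted for 3 of them: 10.31 on 0.1 mg/kg replicate 2 (the others 10.81 to 10.95), 11.09 on 15 mg/kg replicate 3 (the others 10.55 to 10.69) and 10.27 on 50 mg/kg replicate 4 (the others 10.55 to 10.64). C1qb was at 10.25 on 15 mg/kg replicate 3 (the others 10.00 to 10.05). C1qc was at 8.90 on 50 mg/kg replicate 4 (the others 9.14 to 9.18). The mean of the 9 macrophage genes was also the lowest of its group on 0.1 mg/kg replicate 2 and 50 mg/kg replicate 4, and the highest of its group on 15 mg/kg replicate 3. Both muscle and pancreas transcripts were high on 15 mg/kg replicate 3 (list means 9.69 and 7.38), pancreas transcripts on 0.1 mg/kg replicate 2 (7.38) and muscle transcripts on 50 mg/kg replicate 4 (7.55); their part in these values was not tested.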

How the results depend on the processing

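With 5 arrays a group, 5 of the 6 calls at 50 mg/kg ended in at least 1 fit that left out an array; that of C1qb did not. Leaving out each array in turn gave 1 to 7 macrophage probe sets called lower at 50 mg/kg (6 with all arrays), 3 to 8 for the slope (7), 0 to 1 for 50 against 0.1 mg/kg (0) and 0 at 15 and 0.1 mg/kg and for 50 against 15 mg/kg. Over all probe sets the calls were 106 to 276 at 50 mg/kg (290), 14 to 44 at 15 mg/kg (36), 0 to 1 at 0.1 mg/kg (0), 107 to 220 for 50 against 0.1 mg/kg (200) and 232 to 487 for the slope (449). With only the groups compared, 89 probe sets and 3 macrophage probe sets (C1qa, C1qb and C1qc) were called at 50 mg/kg and 11 probe sets at 15 mg/kg. Among probe sets with a mean of at least 6, 1 macrophage probe set was called for 50 against 0.1 mg/kg. C1qa passed at 50 mg/kg with that filter (adjusted p = 0.0332), an intensity trend (0.0461) or array weights (0.0393).

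Other fits were added after the data had been seen. The one without arrays carrying muscle or pancreas transcripts called 3 probe sets at 50 mg/kg and 3 at 15 mg/kg. It called 0 macrophage probe sets at 50 mg/kg and has fewer arrays. With 1 array left at 0.1 mg/kg, counts for 50 against 0.1 mg/kg and for the slope are not given. Muscle, pancreas and erythroid covariates gave 227 probe sets at 50 mg/kg, 21 at 15 mg/kg and 131 for 50 against 0.1 mg/kg. The actin covariate gave 193 at 50 mg/kg and 119 for 50 against 0.1 mg/kg, and ended the calls of C1qc (adjusted p = 0.0611) and Cd68 (0.0586). The cause was not tested in either. The median r of the gene pairs was 0.68 with group means kept, which adds the differences between doses, and 0.48 without.

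The replicate number as a block gave 235 probe sets and the same number of macrophage probe sets, 6, at 50 mg/kg, and a replicate block changed no call of a macrophage probe set against vehicle; for the slope it gave 6. The leading digit as a block gave 238 and 5, and ended the call of C1qc (adjusted p = 0.0504).

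Signs turned only for log2 changes near 0 that were not called. At 0.1 mg/kg, Csf1r was at -0.02 with the digit block, -0.01 with equal medians, 0.00 with array weights or the actin covariate, -0.13 without the muscle or pancreas arrays and -0.09 with tissue covariates. Clec4f was at 0.02 with the digit block and 0.01 after another quantile normalization, and the Gas6 probe set 1369735_at at -0.01 without those arrays and -0.05 with the covariates. Without those arrays, which leaves 1 array at 0.1 mg/kg, the Gas6 probe set 1392784_at was at -0.08 at that dose. At 15 mg/kg it was at -0.02 with array weights, -0.10 without those arrays, 0.00 with tissue covariates and -0.01 with the actin covariate. Leaving out 1 array gave -0.05 to 0.06 for Csf1r, -0.13 to 0.05 for Clec4f and -0.02 to 0.12 for Gas6 1392784_at at 0.1 mg/kg, and -0.07 to 0.08 at 15 mg/kg and -0.11 to 0.03 at 50 mg/kg for the last.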
